A study of Homo sapiens with 14 samples.

Results

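Intestinal differentiation markers are genes that absorptive cells and other mature cells of the gut lining express and that many colorectal tumours retain to some degree. The 10 studied here, chosen by gene symbol, were the transcription factors CDX1 and CDX2, the brush border protein gene VIL1, the fatty acid carrier gene FABP1, the keratin gene KRT20, the surface adhesion genes CEACAM5 and CEACAM6, and PHGR1, MUC13 and LGALS4. All 10 were listed among the 36601 genes of the single-cell matrices and among the genes of the bulk tables. In the normal colon, CDX1 and CDX2 set intestinal identity and act on many genes of the mature enterocyte. As cells leave the crypt they stop dividing, build a brush border on a villin core and take up keratin 20, surface mucins and CEACAM proteins.

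The study asked how SW620 cells change in a long colony culture without passage, and what the catalytic domain of TET2, an enzyme that oxidises methylcytosine in DNA, does to that course. SW620 is a human colorectal cancer line from a lymph node metastasis, and SW480 comes from the primary tumour of the same patient. In the 8 single-cell RNA-seq libraries, SW620 cells expressing FLAG (SW620-FLAG, called SW620 in the labels) or with the overexpressed domain (SW620-TET2CD) were taken on days 6, 9, 12 and 15, with 1 library per line and day. The 6 bulk RNA-seq libraries came from SW480 and SW620 as whole cultures (day 6) and, on day 15, from the inside and the outside of colonies of SW620 and SW620-TET2CD. The labels do not say whether the bulk SW620 libraries carried FLAG, so the bulk and the single-cell control may not be the same line. Outside cells were those that came loose in a short accutase digestion and passed a strainer. With 1 library per line and day, the day and the handling of that library cannot be told apart. The 2 early days served as replicates of each other, as did the 2 late days, and p-values measure only the spread between these libraries. Late against early, the libraries of the 2 lines on a day counted as separate replicates, though any departure of that day may be shared by both.

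The single-cell libraries held 3894 to 8154 cells after filtering and 48186195 to 74185723 UMIs (counted molecules) each, and the bulk libraries 16477779 to 25854058 expected counts. Of 47985 barcode sequences in the kept cells, 297 (0.619%) occurred in more than 1 library. TET2 stood at 2.11 to 3.90 CPM (UMIs of a gene scaled to the total UMIs of the library) in SW620-FLAG and at 40.2 to 107 CPM in SW620-TET2CD. The epithelial marker EPCAM was at 496 to 639 CPM in every single-cell library, and KRT19 at 1314 to 2439 CPM. Of the markers of other cell types, PTPRC (leukocytes) reached 0.02 CPM at most, KDR (endothelium) was at 0, and COL1A2 (fibroblasts) reached 0.02 CPM at most. Summed over the lists, fibroblast markers stood at 16.7 to 28.8 CPM on days 6 and 9 and at 8.49 to 12.9 CPM on days 12 and 15. Immune markers went from 7.80 to 17.7 CPM on the early days to 24.1 to 57.9 CPM on the late days, and endothelial markers lay between 0.379 and 1.39 CPM. LUM made up most of the fibroblast sum, and LYZ and CD68 most of the immune sum.

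VIL1 had the highest level of the 10 genes in every bulk library of SW620 origin, and CDX1 was close to absent. VIL1 encodes villin, the actin-bundling protein of microvilli, and its TPM (a level per transcript length) lay between 131 and 313 in the 5 bulk libraries of SW620 origin. On the same scale MUC13 lay between 4.75 and 38.2 and CDX2 between 3.21 and 39.7. FABP1 ranged from 0.98 to 33.5 TPM, PHGR1 from 1.69 to 10.9 TPM and LGALS4 from 0.78 to 2.50 TPM. KRT20, CEACAM5, CEACAM6 and CDX1 stayed under 1 TPM in all 6 bulk libraries, SW480 included. The single-cell sums gave the same separation, with 53115 UMIs of VIL1 over the 8 libraries, 3619 to 7836 of PHGR1, CDX2, FABP1 and MUC13, 436 of LGALS4, 204 of KRT20, 72 of CEACAM6, 51 of CEACAM5 and 22 of CDX1. A total of 3 counts per library, the floor of detection, corresponds to 0.0404 to 0.0623 CPM.

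In single cells, thinned to 2000 UMIs per cell so that libraries of different depth can be compared, a VIL1 UMI was found in 14.1% (SW620-FLAG, day 15) to 22.4% (SW620-FLAG, day 6) of cells. The share was 1.54% to 6.08% for PHGR1, 1.60% to 4.51% for CDX2, 1.03% to 3.33% for MUC13 and 0.234% to 3.13% for FABP1. Without thinning the medians over the libraries were 63.8% for VIL1, 9.12% for PHGR1, 8.85% for CDX2, 6.74% for FABP1 and 6.39% for MUC13. Single cells held up to 26 FABP1 UMIs, up to 12 of PHGR1 and at most 10 of VIL1. In cells not thinned, the variance over cells was 1.67 to 5.64 times the mean for FABP1, 1.397 to 2.296 times for PHGR1 and 1.202 to 1.42 times for VIL1. It was larger for FABP1 than for PHGR1 in all 6 libraries of days 6 to 12 and smaller in both of day 15. These ratios depend on depth: the highest, of FABP1 in SW620-TET2CD on day 12, was 1.70 after thinning to 2000 UMIs. No cell type that should lack these genes was in the cultures, so the share due to free RNA was not measured.

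**Figure D1:**
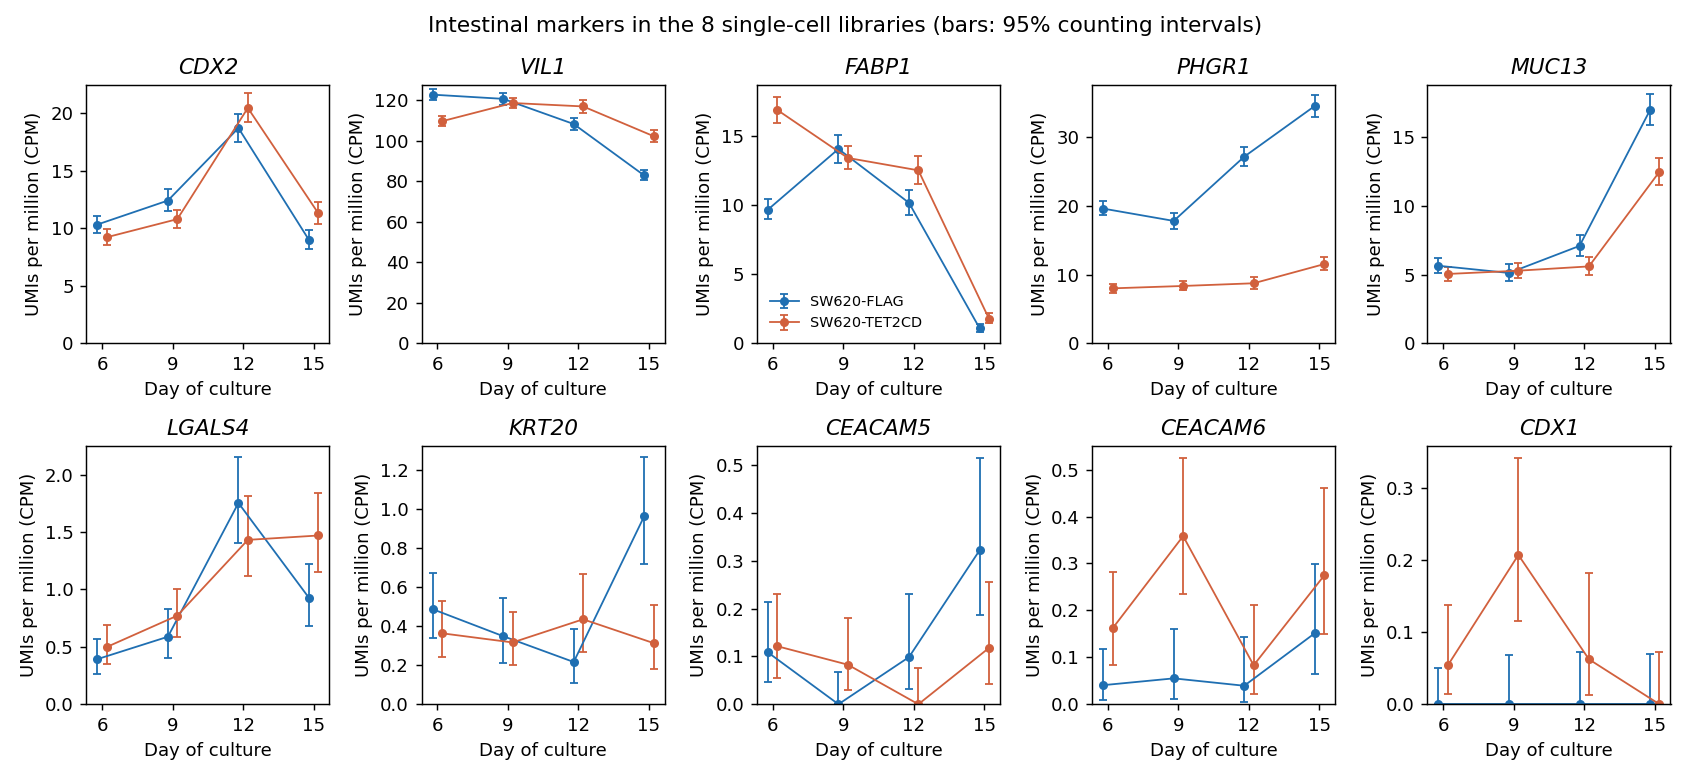
CPM of each marker against the day of culture in SW620-FLAG (blue) and SW620-TET2CD (orange), 1 library per point, with exact Poisson 95% intervals that cover counting error only. FABP1 stands on day 15 at 1.12 and 1.80 CPM, MUC13 is highest on day 15 at 17.0 and 12.5 CPM, and PHGR1 is higher in SW620-FLAG on all 4 days.

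The transcription factors behaved differently from each other. CDX2, the caudal-type homeobox factor that keeps adult colon cells intestinal, stood in SW620-FLAG at 10.3 CPM on day 6, 12.4 on day 9, 18.7 on day 12 and 8.99 on day 15. SW620-TET2CD had 9.22, 10.8, 20.4 and 11.3 CPM on those days. Day 12 was the highest in both lines, and the level on day 15 was 2.08-fold lower than on day 12 in SW620-FLAG and 1.81-fold lower in SW620-TET2CD. The late days (12 and 15) and the early days (6 and 9) overlapped, and the difference did not pass the test (log2 fold change 0.37, SE 0.24, adjusted p = 0.203, edgeR quasi-likelihood test with Benjamini-Hochberg adjustment, n = 4 against 4 libraries). Without the SW620-FLAG library of day 15 it did (0.55, adjusted p = 0.0489), and when day 15 was set against the other days the fitted change had the other sign (-0.47, adjusted p = 0.296). CDX1, its paralog, was at 0 in all 4 SW620-FLAG libraries. In SW620-TET2CD it had 4, 15, 3 and 0 UMIs, the highest being 0.207 CPM (95% interval 0.116 to 0.341) on day 9. At this depth a level below the floor was not detectable in SW620-FLAG.

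VIL1 fell slightly late in the culture. SW620-FLAG had 123, 121, 108 and 82.9 CPM on the successive days, and SW620-TET2CD had 110, 119, 117 and 102 CPM. The lowest 2 values were those of day 15, and SW620-TET2CD on day 12 lay within the early range. The fall of 0.31 on the log2 scale (SE 0.12, 1.24-fold) passed the test with an adjusted p of 0.0395 (edgeR). It lost the call without any 1 library other than that of SW620-TET2CD on day 12 (adjusted p 0.0113 to 0.1 over the 8 omissions), and under upper-quartile factors (-0.14, adjusted p = 0.336). That scaling moves the median of all tested genes to 0.21, against 0.04 under the TMM factors used here.

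FABP1, the liver-type fatty acid carrier of the absorptive cell, showed the widest range of the 8 markers with a UMI in every library, 15.1-fold from the lowest to the highest. SW620-FLAG had 9.67, 14.1, 10.2 and 1.12 CPM on days 6 to 15, and SW620-TET2CD had 16.9, 13.4, 12.5 and 1.80 CPM. Both day 15 libraries lay far below the other 6, with falls from day 12 of 9.11-fold in SW620-FLAG and 6.94-fold in SW620-TET2CD, while day 12 was still within the early range. Cells with a FABP1 UMI went from 1.59% (95% exact binomial interval 1.22 to 2.03%) to 0.234% (0.134 to 0.380%) between days 12 and 15 in SW620-FLAG, and from 1.83% (1.43 to 2.31%) to 0.394% (0.250 to 0.590%) in SW620-TET2CD. Late against early, the change was -1.19 (SE 0.60, 95% interval -2.52 to 0.13) and did not pass the test (adjusted p = 0.110, edgeR). It passed without the day 12 library of SW620-FLAG (-1.90, adjusted p = 0.0286) or of SW620-TET2CD (-1.90, adjusted p = 0.0193), with the day as a number (-0.89 per 3 days, adjusted p = 0.0198) and with no filter on low counts (-1.24, adjusted p = 2e-12). Day 15 against the other days, a contrast chosen because of these values and so no test of them, gave a difference of -3.22.

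The 250 bases before the RefSeq start site of FABP1 are shown because they hold 1 of the letter patterns searched, and FABP1 had that widest range. The patterns were TTTATG for CDX factors and CAAAGTCCA for HNF4, each on both strands, with no overlap between them in the windows printed. Upstream windows were given for 7 of the 10 genes (not CDX1, VIL1 or PHGR1). Capitals mark the matches. In FABP1 (GRCh38.p14, chr2:88128063-88128312, minus strand, written 5′ to 3′ along the gene) a reversed CDX pattern begins 89 bases before the start site.
FABP1: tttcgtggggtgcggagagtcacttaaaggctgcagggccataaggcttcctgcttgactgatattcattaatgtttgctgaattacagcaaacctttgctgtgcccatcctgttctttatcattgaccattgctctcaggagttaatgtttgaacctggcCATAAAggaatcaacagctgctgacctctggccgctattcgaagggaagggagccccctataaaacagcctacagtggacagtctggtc
KRT20, the only other gene of the 7 with the CDX pattern, holds it reversed 29 bases before its start site (chr17:40885243-40885492, minus strand).
KRT20: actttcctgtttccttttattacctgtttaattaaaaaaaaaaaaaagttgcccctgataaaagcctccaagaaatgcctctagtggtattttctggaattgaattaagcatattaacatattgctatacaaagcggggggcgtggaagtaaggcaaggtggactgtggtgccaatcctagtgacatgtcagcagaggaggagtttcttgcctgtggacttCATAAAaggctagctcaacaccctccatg
MUC13, which was higher on day 15 where FABP1 was lower, has a reversed HNF4 pattern 51 bases before the RefSeq start (chr3:124934752-124935001, minus strand).
MUC13: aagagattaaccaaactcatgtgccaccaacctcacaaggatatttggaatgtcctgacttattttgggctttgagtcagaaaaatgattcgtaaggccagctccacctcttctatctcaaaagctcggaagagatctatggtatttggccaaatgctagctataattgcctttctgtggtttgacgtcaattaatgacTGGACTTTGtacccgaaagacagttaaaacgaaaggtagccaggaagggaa
Of 35116 upstream windows of the same length, 9.64% hold the CDX pattern and 0.325% the HNF4 pattern. CDX2, LGALS4, CEACAM5 and CEACAM6 hold neither. A match is a run of letters and no measurement of binding.

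MUC13, a transmembrane mucin of the apical surface, was highest on day 15 in both lines. Its levels were 5.65, 5.13, 7.09 and 17.0 CPM for SW620-FLAG, against 5.05, 5.29, 5.60 and 12.5 CPM for SW620-TET2CD. The 2 libraries of day 15 were the highest, by 2.39-fold over day 12 in SW620-FLAG and 2.23-fold in SW620-TET2CD, and of the day 12 libraries that of SW620-FLAG lay above all 4 early ones and that of SW620-TET2CD within the early range. MUC13 rose late against early by 0.89 (SE 0.30, adjusted p = 0.0284, edgeR). The call was lost without any of 5 libraries, both of day 6, both of day 15 and that of SW620-FLAG on day 9 (0.48 to 0.92, adjusted p 0.0515 to 0.118), and with every barcode (0.74, adjusted p = 0.0568).

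LGALS4, a galectin that binds sugars at the enterocyte surface, was at a low level and was the only 1 of the 7 tested markers whose late and early libraries did not overlap. It had 0.393, 0.588, 1.75 and 0.927 CPM in SW620-FLAG and 0.499, 0.772, 1.43 and 1.47 CPM in SW620-TET2CD. All 4 late libraries lay above all 4 early ones, a pattern that 29.9% of the 16526 tested genes showed. LGALS4 rose by 1.21 (SE 0.26, 2.31-fold, adjusted p = 0.00263, edgeR), and the call held without each library in turn (adjusted p 0.00273 to 0.0125). PHGR1, a small protein rich in proline, histidine and glycine that marks the mature gut lining, rose by 0.42 (SE 0.16, adjusted p = 0.0423), from 19.6 and 17.8 to 27.2 and 34.5 CPM in SW620-FLAG and from 8.02 and 8.37 to 8.76 and 11.5 CPM in SW620-TET2CD. Its call was lost without any of the 6 libraries of days 6, 9 and 15 (0.25 to 0.46, adjusted p 0.0536 to 0.145). It was also lost in DESeq2 (0.38, adjusted p = 0.0671), with no block (0.54, adjusted p = 0.354), with every barcode (0.25, adjusted p = 0.272), with no upper limits on cells (0.36, adjusted p = 0.117) and at a mitochondrial limit of 20% (0.31, adjusted p = 0.126).

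KRT20, the keratin of mature colon surface cells, was between 0.217 and 0.965 CPM in the 8 libraries, with the highest value in SW620-FLAG on day 15. Late and early libraries overlapped (0.24, SE 0.43, adjusted p = 0.653, edgeR). CEACAM5, which encodes carcinoembryonic antigen, had 0 to 17 UMIs per library, the most again in SW620-FLAG on day 15 (0.322 CPM, 95% interval 0.187 to 0.515). CEACAM6, a related adhesion molecule, had 2 to 26 UMIs, the most in SW620-TET2CD on day 9 (0.358 CPM, 0.234 to 0.525). CEACAM5, CEACAM6 and CDX1 did not pass the filter on low counts.

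In all, 4 of the 7 tested markers passed the threshold late against early, LGALS4, MUC13 and PHGR1 upward and VIL1 downward, where 58% of all tested genes did (29.4% upward, 28.6% downward). The share of markers is near that of all genes. The median log2 fold change was 0.37 over the 7 markers and 0.04 over all tested genes. Under upper-quartile factors the calls over all genes divided into 6250 higher and 3636 lower, against 4861 and 4726. The share of dividing cells, by 12 mitotic genes, moved with the same contrast, from 48.8 to 61.1% on days 6 and 9 to 4.53 to 10.7% on days 12 and 15. These shares depend on the limits on cells, and the upper limits removed dividing cells in every library. Without the upper limits day 12 had 570 dividing cells in SW620-FLAG, against 178, and 1258 in SW620-TET2CD, against 418.

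Other gut genes on lists of related function were called in both directions in the same contrast. Of 12 tested intestinal transcription factors 6 rose, led by EHF (1.34, adjusted p = 0.000254), an ETS factor of epithelia, and SOX9 (1.22, adjusted p = 0.00011), a factor of crypt progenitors. Of 12 tested absorptive and brush border genes 5 rose and 2 fell, with USH1C, which ties microvilli tips together, at 0.94 (adjusted p = 7.93e-05) and the actin bundler PLS1 at 0.63 (adjusted p = 0.00247). CDHR5 (1.93, adjusted p = 0.00777) and CDHR2 (1.43, adjusted p = 3.89e-05) rose more. CDHR5 reached at most 0.605 CPM and met the filter on low counts mainly through the late libraries, where it is high. Its value therefore describes its rise and does not test it. The genes that fell were GUCA2A, the peptide hormone guanylin (-3.33, adjusted p = 0.000349), and APOA1, an apolipoprotein (-1.19, adjusted p = 0.0334), which reached at most 1.21 and 0.876 CPM in a library. GUCA2A and APOA1 met the filter on low counts mainly through the early libraries, where they are high, so these values describe their falls and do not test them. Of 4 tested goblet and secretory genes 2 rose and 1 fell. TFF3, the trefoil peptide of goblet cells, rose by 1.60 (adjusted p = 1.27e-05), as did TFF1, another trefoil peptide, by 3.08 (adjusted p = 0.000125), and AGR2, a protein disulfide isomerase of secretory cells, fell by 1.11 (adjusted p = 0.0356). CHGB, a granin of endocrine granules and the only enteroendocrine gene of 6 that was tested, fell by 0.96 (adjusted p = 0.00218). CDHR5, CDHR2, GUCA2A, APOA1, TFF1, AGR2 and CHGB had means under 8 CPM and were named after their values were seen. Of 8 tested crypt base genes 2 rose and 3 fell: EPHB2 fell by 1.01 (adjusted p = 0.00423) and LGR5 by 0.96 (adjusted p = 0.0435), and PROM1 (1.55, adjusted p = 0.000124) and SMOC2 (0.81, adjusted p = 0.00458) rose. Of 2 tested relatives of CEACAM5 both rose, CEACAM1 by 2.07 (adjusted p = 4.35e-05), and of 4 galectins 2 rose, LGALS1 (0.85, adjusted p = 0.00483) and LGALS8 (0.56, adjusted p = 0.000915). Of 7 tested surface and adhesion genes 2 rose: CDH1, the epithelial cadherin, rose by 1.39 (adjusted p = 0.00018) and the tetraspanin TSPAN8 by 0.50 (adjusted p = 0.0296). The mitotic genes PLK1 (-3.10, adjusted p = 1.69e-05) and MKI67 (-2.71, adjusted p = 2e-05) fell. Of 4 tested fibroblast genes LUM alone fell (-1.39, adjusted p = 0.000996) and 2 rose. DCN, 1 of those 2 and likewise named after its values were seen, reached at most 0.431 CPM. It met the filter on low counts mainly through the late libraries, where it is high, so its rise was not tested. Of 4 tested immune genes LYZ (1.07, adjusted p = 0.00235) and CD68 (3.10, adjusted p = 0.000636) rose (all edgeR). The calls of LGR5, TSPAN8, AGR2 and APOA1 were lost without some of the libraries (adjusted p up to 0.124, 0.0987, 0.199 and 0.134).

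Between the lines, PHGR1 was the marker that differed. It was lower in SW620-TET2CD on each of the 4 days, at 8.02 against 19.6 CPM on day 6, 8.37 against 17.8 on day 9, 8.76 against 27.2 on day 12 and 11.5 against 34.5 on day 15. The lines did not overlap on any pair of days (24.8 ± 7.66 CPM in SW620-FLAG and 9.17 ± 1.61 CPM in SW620-TET2CD, SD over days, n = 4). The difference was -1.50 on the log2 scale (SE 0.12, 95% interval -1.77 to -1.24), 2.83-fold lower in SW620-TET2CD, with an adjusted p of 2.94e-05 (edgeR, days as blocks). It held without each library in turn (-1.61 to -1.37). The shares of cells with a PHGR1 UMI were 3.69, 3.57, 5.17 and 6.08% in SW620-FLAG and 1.54, 1.88, 1.70 and 2.00% in SW620-TET2CD. PHGR1 was the only 1 of the 7 tested markers past the threshold, where 4.21% of 16526 tested genes were (1.85% lower in SW620-TET2CD), and 5.78% were lower in SW620-TET2CD on all 4 days. The same 8 libraries served for this contrast and for late against early. The days served as replicates of the difference, so its p-value measures the spread over days. TET2CD and any other difference between the lines cannot be told apart.

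The other tested markers differed by less than the test could call. FABP1 was higher in SW620-TET2CD on 3 of 4 days (0.32, 95% interval 0.01 to 0.63, adjusted p = 0.315, edgeR), and in non-dividing cells alone, an alternative chosen after seeing the data, its difference passed (0.55, adjusted p = 0.0182). MUC13 was lower on 3 of 4 days (-0.34, 95% interval -0.61 to -0.07, adjusted p = 0.204), and passed with no filter on low counts (-0.35, adjusted p = 0.0474). For VIL1 the interval was -0.26 to 0.17, for CDX2 -0.29 to 0.14, for LGALS4 -0.28 to 0.58 and for KRT20 -1.32 to 0.30. CEACAM6 was higher in SW620-TET2CD on all 4 days with 2 to 26 UMIs per library (0.219 ± 0.121 against 0.0716 CPM, n = 4), and was not tested. In the edgeR fit without a filter, where 1489 of 26937 genes were called, its difference was 1.49 (adjusted p = 0.0518). It did not pass in DESeq2 (adjusted p = 0.428) or in edgeR with the filter set by the full design (adjusted p = 0.0996). CDX1, at 0 throughout SW620-FLAG, was called in the fit without a filter (adjusted p = 0.0145, edgeR), and DESeq2 gave it no adjusted p. Its 15 UMIs in SW620-TET2CD on day 9 came from 7 cells, with up to 6 in a cell.

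Of 4 tested goblet and secretory genes 1 was higher and 1 lower in SW620-TET2CD. AGR2, named after its values were seen, was at 6.51 to 20.2 CPM in SW620-TET2CD and at 0.355 to 1.77 CPM in SW620-FLAG (3.62, adjusted p = 1.28e-06, and called without each library in turn), and TFF3 was lower (-0.47, adjusted p = 0.0457). CHGB, named likewise, was higher (0.62, adjusted p = 0.0420). Of 7 tested surface and adhesion genes 2 were lower, TSPAN8 (-0.90, adjusted p = 0.00197) and CDH17 (-1.67, adjusted p = 0.00336, edgeR). CDH17 was named after its values were seen, and was called without each library in turn. Of 8 tested crypt base genes PROM1 (0.56, adjusted p = 0.0341) and SMOC2 (0.52, adjusted p = 0.04999) were higher. The calls of TFF3, CHGB, PROM1 and SMOC2 were each lost without at least 1 of the 8 libraries (adjusted p up to 0.265, 0.275, 0.132 and 0.243). None of the 12 transcription factors passed. Of the 12 absorptive and brush border genes 1 did, CDHR2, which was lower in SW620-TET2CD (-0.66, adjusted p = 0.00682, edgeR) and was named likewise. LYZ was higher (0.83, adjusted p = 0.00811) and CD68 lower (-1.08, adjusted p = 0.0096, edgeR), with adjusted p up to 0.0520 and 0.0561 without 1 library. Whether the lines changed differently over time was asked with the interaction term. No gene of 17478 passed in edgeR, and none of 26937 in DESeq2. In edgeR 141 genes had an unadjusted p under 0.05, and the 8 markers tested had adjusted p values of 1.00. For PHGR1 the term was -0.54 (95% interval -1.20 to 0.12).

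**Figure D2:**
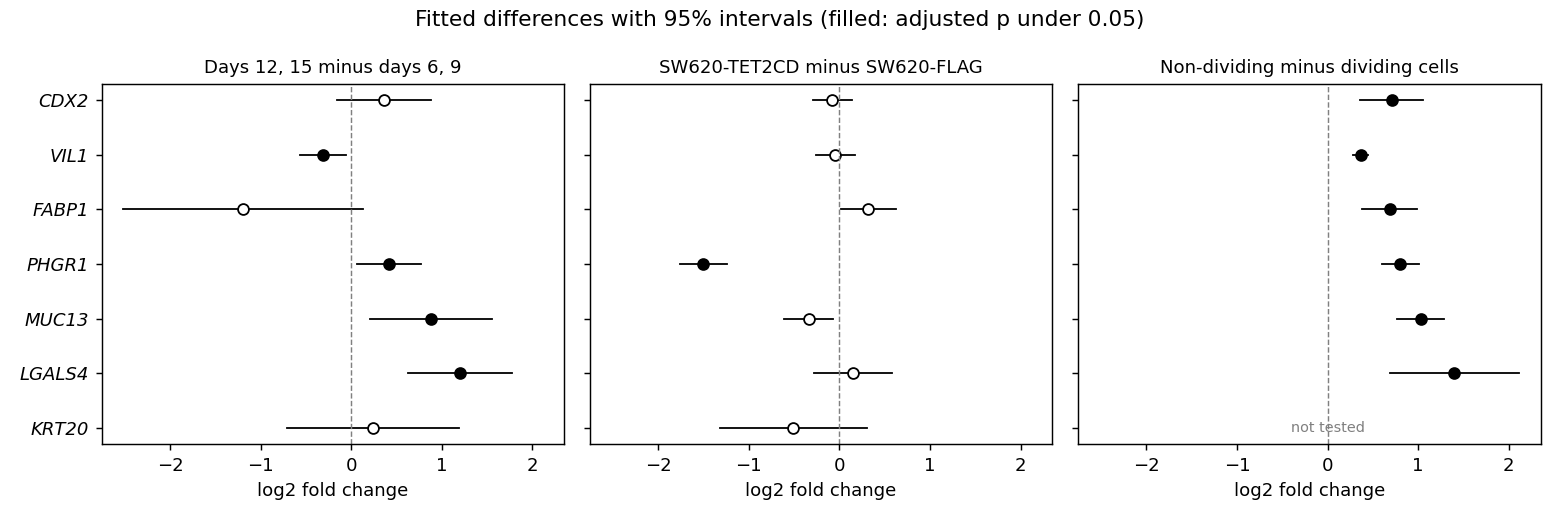
Fitted log2 fold changes of the 7 markers that could be tested, with 95% intervals, for late against early days, SW620-TET2CD against SW620-FLAG, and non-dividing against dividing cells. Filled points passed the threshold of 0.05 on the adjusted p. All 6 markers tested in the last contrast lie above 0, and in the second only PHGR1 (-1.50) is filled.

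Cells were then divided within each library by the share of 12 mitotic genes among their UMIs, to compare dividing with non-dividing cells of the same culture. Cells with at least 0.1% were called dividing and those with at most 0.02% non-dividing. A cycling cell between mitoses may also have few mitotic UMIs, so non-dividing does not mean that a cell had left the cycle. Per library 178 to 4981 cells were dividing and 693 to 5729 non-dividing. Dividing cells were deeper, with medians of 7682 to 14808 UMIs against 5226 to 12982. None of the markers is among the 12 genes of the division.

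All 6 markers that passed the filter were higher in non-dividing cells, where 29.5% of 14536 tested genes were (56.9% were called in either direction). MUC13 rose by 1.03 (SE 0.12, adjusted p = 6.92e-06), PHGR1 by 0.80 (SE 0.10, adjusted p = 8.06e-06), LGALS4 by 1.40 (SE 0.33, adjusted p = 0.00265) and VIL1 by 0.37 (SE 0.04, adjusted p = 3.11e-06). CDX2 rose by 0.71 (SE 0.16, adjusted p = 0.00192) and FABP1 by 0.69 (SE 0.14, adjusted p = 0.000942, edgeR with the library as a block, 8 libraries). The median over the 6 was 0.76, against 0.04 over all tested genes, and under upper-quartile factors the 6 lay between 0.49 and 1.53 with the median of all genes at 0.16. That scaling gave 6004 higher and 2743 lower genes, against 4290 and 3980. Every call held without each library in turn, and in cells with 5000 to 15000 UMIs, a window chosen after seeing the data, the 6 differences were 0.36 to 1.23 and all passed (adjusted p at most 0.0155).

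The direction was the same in every library for VIL1, PHGR1 and MUC13, a pattern shown by 17.5% of tested genes. VIL1 was 1.19 to 1.37-fold, PHGR1 1.19 to 2.37-fold and MUC13 1.15 to 3.04-fold higher in non-dividing cells. In SW620-FLAG on day 15, MUC13 was at 17.9 CPM in non-dividing and 11.6 CPM in dividing cells, and in SW620-TET2CD at 13.8 and 4.56 CPM. LGALS4 was higher in 7 of 8 libraries, the exception being SW620-FLAG on day 6, where the non-dividing sum held 1 UMI.

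CDX2 and FABP1 were higher in non-dividing cells in every library of days 6, 9 and 12, and on day 15 the difference was small or opposite. CDX2 was at 17.2 to 21.5 CPM in non-dividing and 7.49 to 11.3 CPM in dividing cells over the 4 libraries of days 6 and 9, with no overlap. On day 12 it was at 18.2 against 13.7 CPM in SW620-FLAG and at 21.0 against 16.9 CPM in SW620-TET2CD, and on day 15 at 8.60 against 7.58 CPM in SW620-FLAG and at 10.3 against 13.9 CPM in SW620-TET2CD. Fitted on days 6 and 9 alone the difference was 1.07, and on days 12 and 15 alone it was 0.16 and did not pass (adjusted p = 0.379). FABP1 was at 15.0 to 27.4 CPM in non-dividing and 8.07 to 14.9 CPM in dividing cells on the early days. On day 12 it was at 9.89 against 3.63 CPM in SW620-FLAG (2.72-fold) and at 14.2 against 7.95 CPM in SW620-TET2CD (1.78-fold), the dividing sums holding 9 and 47 UMIs, and on day 15 at 0.981 against 1.68 CPM in SW620-FLAG and 1.83 against 2.88 CPM in SW620-TET2CD. The dividing sums of day 15 held only 8 and 12 FABP1 UMIs, and fitted on days 12 and 15 together, which differ in direction, its difference of 0.60 did not pass (adjusted p = 0.0654). These divisions by day were added after seeing the data, and the difference between early and late days itself was not tested.

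KRT20 did not pass the filter in this contrast. It had 30 UMIs in dividing and 130 in non-dividing cells. The non-dividing level was higher in all 8 libraries, from 2.42 against 0.12 CPM in SW620-FLAG on day 6 to 1.03 against 0.842 CPM on day 15. With no filter the difference was 2.76 (SE 0.38, adjusted p = 1.58e-08, edgeR), with the filter set by the full design it was 2.78 (adjusted p = 8.51e-05), and DESeq2 gave 2.50 (adjusted p = 2.25e-05). KRT20 met the filter set by the full design mainly through the non-dividing sums, where it is high, so that call adds no support. CEACAM6 had 18 and 46 UMIs, 17 of the latter in SW620-TET2CD on day 9, and CEACAM5 had 13 and 32. With no filter CEACAM6 differed by 2.03 (SE 0.54, adjusted p = 0.00207, edgeR), and in DESeq2 its difference did not pass (adjusted p = 0.111). CDX1 had 16 UMIs in dividing cells, 12 of them in SW620-TET2CD on day 9, and 3 in non-dividing cells.

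**Figure D3:**
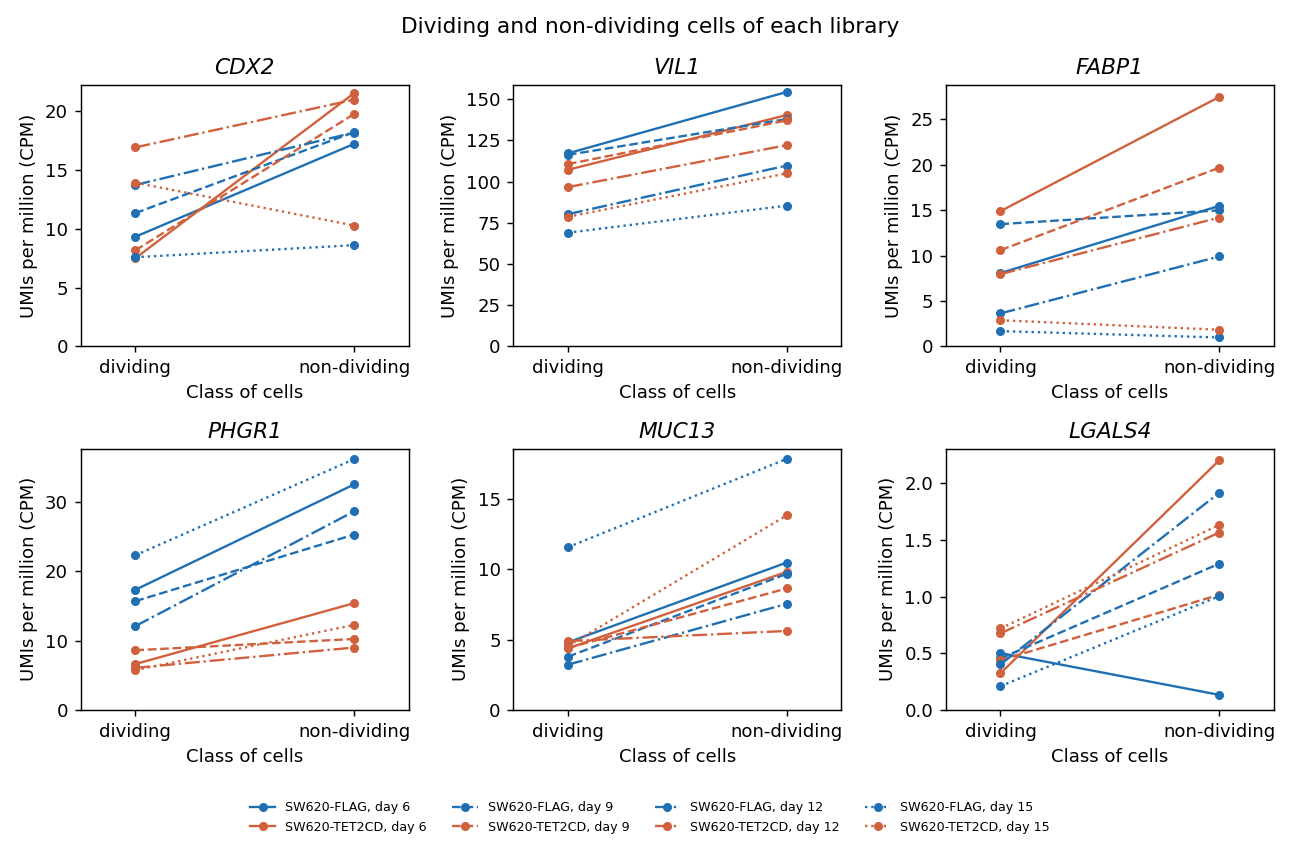
CPM of 6 markers in the dividing and the non-dividing cells of each library, joined by a line per library (blue, SW620-FLAG; orange, SW620-TET2CD; line style, day). VIL1, PHGR1 and MUC13 rise in all 8 libraries, while FABP1 on day 15 is lower in non-dividing cells in both lines.

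Of the related lists, 9 of 12 transcription factors were higher in non-dividing cells and 1 was lower, with ELF3 (0.90, adjusted p = 1.26e-07) and EHF (0.77, adjusted p = 3.09e-07) in front among those with a mean of at least 8 CPM. ISX, a homeobox factor of the gut with a lower mean and named after its values were seen, had a larger difference (1.32, adjusted p = 3.99e-05). Of 7 tested absorptive and brush border genes 5 were higher, among them USH1C (0.83, adjusted p = 8.15e-08) and PLS1 (0.32, adjusted p = 3.63e-05), and of 7 surface and adhesion genes 6 were, among them TSPAN8 (1.21, adjusted p = 3.82e-07) and KRT19 (0.54, adjusted p = 6.47e-07). Of 4 tested goblet and secretory genes 3 were higher, among them TFF3 (1.23, adjusted p = 5.98e-09). CEACAM1 (1.33, adjusted p = 2.11e-07) was the only 1 of 2 tested relatives of CEACAM5 to pass. Of 8 tested crypt base genes 3 were higher, among them PROM1 (1.27, adjusted p = 3.32e-07) and SMOC2 (0.65, adjusted p = 1.23e-05), and 1 was lower, EPHB2 (-0.23, adjusted p = 0.00756). Of 4 galectins 3 were higher and 1 lower: LGALS3 (0.30, adjusted p = 5.95e-06) and LGALS8 (0.40, adjusted p = 4.84e-05) were higher and LGALS1 was lower (-0.38, adjusted p = 0.0345), with the opposite sign on days 6 and 9 alone and adjusted p up to 0.101 without 1 library (all edgeR). LYZ was higher (0.43, adjusted p = 0.0142). The genes of the division, such as UBE2C (-7.56, adjusted p = 6.72e-10) and KIF20A (-7.51, adjusted p = 1.34e-10), differed by construction.

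When late and early days were compared within non-dividing cells alone, an alternative added after seeing the data, the 3 rises no longer passed. The difference was 0.47 for LGALS4 (adjusted p = 0.430), 0.21 for MUC13 (adjusted p = 0.615) and -0.024 for PHGR1 (adjusted p = 0.929, edgeR). VIL1 still fell, by 0.44 (adjusted p = 0.0098). KRT20 was lower late (-1.50, adjusted p = 0.0389), from 7 to 18 UMIs per early sum and 11 to 44 per late sum. It met the filter on low counts mainly through the early sums, where it is high. Its value therefore describes its fall and does not test it. Over all genes 6375 passed in that fit. In all cells the fitted differences were 1.21 for LGALS4, 0.89 for MUC13 and 0.42 for PHGR1. The early non-dividing sums were smaller, with 5903650 to 11801736 UMIs against 34492102 to 44368695 late. They held 1 to 13 UMIs of LGALS4, 58 to 102 of MUC13 and 91 to 242 of PHGR1. A call lost in this fit is no measure of equal levels. The part of the falling share of dividing cells in the late rises was not tested.

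In the bulk libraries of day 6, SW480 and SW620 were set side by side, with 1 library each and so no test. VIL1 was at 36.6 TPM in SW480 and 313 TPM in SW620, an 8.57-fold difference. MUC13 was at 3.49 and 25.4 TPM (7.27-fold), LGALS4 at 0.13 and 1.13 TPM, PHGR1 at 0.78 and 10.9 TPM, and FABP1 was listed at 0 in SW480 and at 33.5 TPM in SW620. CDX2 went the other way, at 42.3 TPM in SW480 and 3.21 TPM in SW620 (13.2-fold). That difference rests on the day 6 library of SW620, as the bulk libraries of day 15 stood at 21.3 to 39.7 TPM of CDX2.

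Across days, also with 1 library each, FABP1 was at 33.5 TPM on day 6 and at 2.46 TPM inside and 2.85 TPM outside the SW620 colonies on day 15, 13.6 and 11.7-fold lower. The direction was that of the single-cell libraries of day 15. CDX2 was at 3.21 TPM on day 6 and at 39.7 and 21.4 TPM on day 15, a difference that the single-cell libraries of the same days (10.3 and 8.99 CPM in SW620-FLAG) did not show. VIL1 was at 313 TPM on day 6 and at 290 and 274 TPM on day 15. MUC13 was at 25.4 TPM on day 6 and at 38.2 inside and 26.8 outside on day 15, against 5.65 and 17.0 CPM in the single-cell libraries of SW620-FLAG. LGALS4 was at 1.13 TPM on day 6, and on day 15 was higher inside (1.84) and lower outside (0.89), against 0.393 and 0.927 CPM in those single-cell libraries. PHGR1 was at 10.9 TPM on day 6 and at 1.69 and 3.59 TPM on day 15, from 35, 8 and 17 expected counts, against 19.6 and 34.5 CPM in the single-cell libraries of SW620-FLAG.

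**Figure D4:**
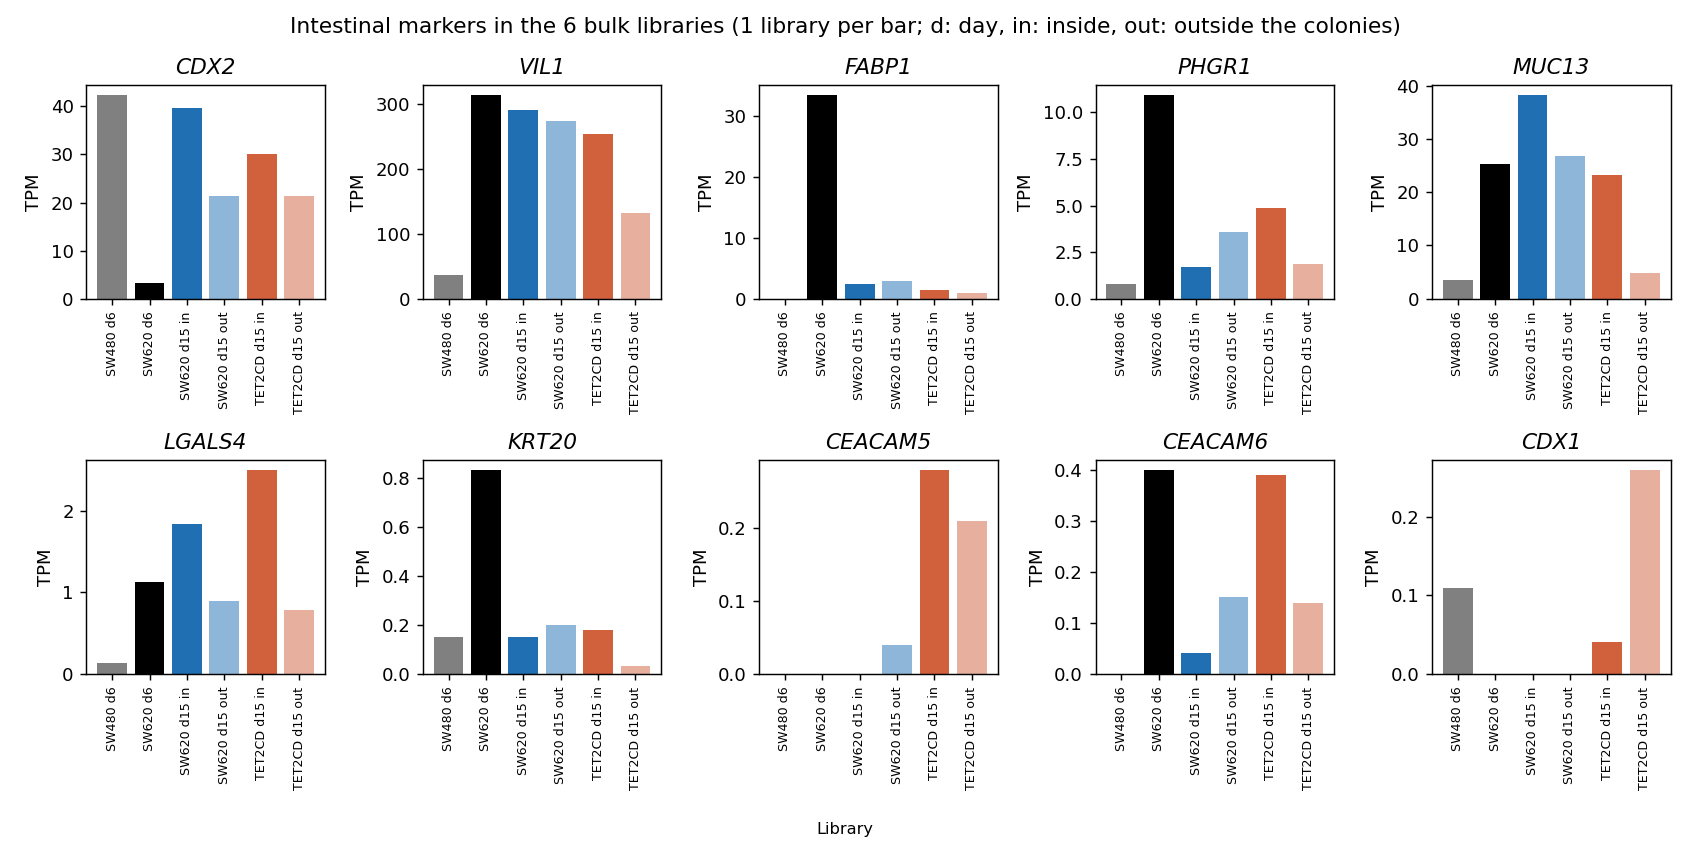
TPM of each marker in the 6 bulk libraries, 1 library per bar (d, day; in and out, inside and outside the colonies), each panel on its own scale from 0. FABP1 stands at 33.5 TPM in SW620 on day 6 and under 3 TPM in all other libraries, and CDX2 and MUC13 are lower outside than inside the colonies in both lines.

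On day 15 the cells inside and outside the colonies were compared, with the line as a block. CDX2 was at 39.7 TPM inside and 21.4 outside in SW620, and at 30.0 and 21.3 in SW620-TET2CD. MUC13 was at 38.2 and 26.8 TPM in SW620 and at 23.3 and 4.75 in SW620-TET2CD. LGALS4 was at 1.84 and 0.89, and at 2.50 and 0.78 TPM. VIL1 was at 290 and 274, and at 253 and 131 TPM. All 4 were lower outside in both lines. The fitted changes were -0.69 (SE 0.10) for CDX2, -1.36 (SE 0.46) for MUC13, -1.26 (SE 0.44) for LGALS4 and -0.46 (SE 0.22) for VIL1, each with an adjusted p of 0.772 (edgeR).

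No gene of 17722 passed in that test (0% called, 1068 genes at an unadjusted p under 0.05, 24 genes called by DESeq2, none of them a marker), and 7 of the 10 markers were tested. With no filter on low counts CDX2 (-0.71, adjusted p = 0.00337) and MUC13 (-1.38, adjusted p = 0.000265) passed, where 472 of 31544 genes did. The median over the 7 was -0.46, against 0.01 over all genes. The 12 mitotic genes had a median of 1.08 in the same fit, with none past the threshold. PHGR1 and FABP1 had opposite signs in the lines, as did KRT20, CEACAM5 and CEACAM6, which stayed under 1 TPM. PHGR1 was at 1.69 TPM inside and 3.59 outside in SW620 and at 4.85 and 1.89 in SW620-TET2CD. In bulk RNA, fewer cells of a type and less RNA per cell cannot be told apart.

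Between the lines on day 15, the same 4 libraries gave 73 called genes in bulk (0.412% of those tested, 0.288% higher and 0.124% lower in SW620-TET2CD) and no marker among them. MUC13 was lower in SW620-TET2CD (-1.60, SE 0.46, 95% interval -2.80 to -0.41, adjusted p = 0.168), as was VIL1 (-0.53, SE 0.22, adjusted p = 0.274). Both passed with no filter on low counts (adjusted p = 2.84e-06 and 0.00772), where 2239 of 31544 genes did. All 12 mitotic genes were lower in SW620-TET2CD in the same fit, with a median of -1.24 and none past the threshold, and their part in the marker differences was not tested. FABP1 had -1.19 (SE 0.57, adjusted p = 0.327) and CDX2 -0.17 (SE 0.10, adjusted p = 0.440, edgeR). PHGR1, the marker that separated the lines in single cells, had 0.27 (95% interval -1.78 to 2.32, adjusted p = 0.879) from 8, 17, 21 and 9 expected counts. CEACAM5 had 0 and 1.98 expected counts in SW620 and 16 and 11.8 in SW620-TET2CD (adjusted p = 0.164), and CEACAM6 had 2 and 7 against 16 and 7. CEACAM5 met the filter on low counts only through the SW620-TET2CD libraries, and FABP1 only through those of SW620. Each was admitted by the line where it is high, so their values here are no test of the lines.

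The genes whose levels over the 8 single-cell libraries were most like those of a marker were found by Pearson's r of log2(CPM + 1) among 8716 others with a mean of at least 8 CPM. The values describe 8 libraries that share days, and carry no test. For CDX2 they were EGLN1 (r = 0.97), CYHR1 (0.97) and HES1 (0.96), for VIL1 MME (0.98), RBMX (0.97) and FAM161A (0.97), for FABP1 C8orf82 (0.98), MNX1-AS1 (0.98) and C9orf116 (0.98), and for PHGR1 CYTL1 (0.95), SMAGP (0.93) and PHLDA2 (0.92). MUC13, LGALS4, KRT20, CEACAM5, CEACAM6 and CDX1 had means under 8 CPM and were left out.

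In the GENCODE annotation of GRCh38, CDX2 lies on chromosome 13 (27960918 to 27969315), VIL1 and FABP1 on chromosome 2 (218419121 to 218453295 and 88122982 to 88128062), MUC13 on chromosome 3 (124905442 to 124953819) and CDX1 on chromosome 5 (150166778 to 150184558). PHGR1 lies on chromosome 15 (40351033 to 40356434) and KRT20 on chromosome 17 (40875889 to 40885242). LGALS4 (38801671 to 38812945), CEACAM5 (41708585 to 41730433) and CEACAM6 (41750977 to 41772211) are on chromosome 19, where CEACAM5 and CEACAM6 are neighbouring paralogs of like sequence, so their few reads may be split between them.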

How the data were processed

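Single-cell RNA-seq (8 libraries) and bulk RNA-seq (6 libraries) were analysed. In the single-cell matrices the authors deposited UMI counts per gene and barcode, made by Cell Ranger 4.0 against GRCh38. The bulk tables the authors deposited hold RSEM expected counts and TPM per gene. The submitters' processing notes for bulk name Bowtie and RSEM, and a mouse build although the gene identifiers are human; the TPM and expected counts were used as deposited.

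Cells were kept at 1000 to 20000 UMIs, 200 to 4500 genes and up to 10% of mitochondrial transcripts (48282 in all). Doublets were not called. UMIs were summed per library, or per library and class of cells (dividing, at least 0.1% of UMIs from 12 mitotic genes; non-dividing, at most 0.02%). CPM is relative to all UMIs of the sum. Shares of cells were counted after thinning to 2000 UMIs, with exact Clopper-Pearson intervals; exact Poisson intervals at 95% belong to the CPM. Both, and the floor of 3 counts, cover counting error only.

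Sums and rounded expected counts were tested with edgeR 4.0.16 (quasi-likelihood test after filterByExpr, with TMM factors, two-sided, and Benjamini-Hochberg adjustment over all tested genes at 0.05) in R 4.3.3. A standard error is the log2 fold change over the root of F. Blocks were the line (late against early), the day (lines), the library (classes of cells) and the line or location (bulk, 4 libraries). DESeq2 1.42.0, upper-quartile factors, no filter, other limits on cells and each library left out were alternatives. Low counts were filtered by the groups of the tested factor, a choice made after fits with the filter set by the full design had been seen; that filter is an alternative. The scripts were tested on simulated data.

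Markers and lists were chosen with earlier results of these data known. Named were all 10 markers, up to 2 called genes per list and direction with a mean of at least 8 CPM, and the 3 genes nearest to each marker. CDH17, CDHR2, CDHR5, GUCA2A, APOA1, TFF1, AGR2, CHGB, ISX, DCN and VWF, called below that mean, were added after their values were seen. A gene of the transcription factor list and a letter pattern planned for the upstream sequences are not reported here. Positions came from GENCODE v44, upstream sequences from RefSeq on GRCh38.p14. Python 3.11.15 with scipy 1.17.1 and pandas 2.3.3 was used.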

Additional observations from a re-analysis of the deposited data

Results flagged for a closer look

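In bulk on day 15, 5 markers had opposite signs between inside and outside the colonies in the lines, and the 2 that reached 1 TPM in a library of that day are set apart here. The log2 ratio of TPM outside over inside was 1.09 for PHGR1 in SW620 and -1.36 in SW620-TET2CD. For FABP1 it was 0.21 in SW620 and -0.62 in SW620-TET2CD. Each rests on 1 library per line and location, with 8 to 21 expected counts of PHGR1 and 6 to 18 of FABP1, and the difference between the lines was not tested. The other 3, under 1 TPM, were KRT20 (5 expected counts inside and 6 outside in SW620, 5 and 1 in SW620-TET2CD), CEACAM6 (2 and 7, 16 and 7) and CEACAM5 (0 and 1.98, 16 and 11.8).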

How the results depend on the processing

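Of 626 alternative values of the tested markers, 550 kept the direction and side of the threshold they had, 29 had the opposite sign with no call before or after, 33 lost the call, 12 gained one and 2 had the opposite sign with a call on at least 1 side. Of 1281 values of other called list genes 1128 kept both, 150 lost the call and 3 had the opposite sign. The opposite signs with a call were those of PHGR1 (-0.024), KRT20 (-1.50) and TSPAN8 (-0.018), late against early in non-dividing cells only, of VWF (-0.076) with day 15 against the other days, and of LGALS1 (0.11) in the division of cells on days 6 and 9 only. Among those with no call, late against early, were CDX2 with day 15 against the other days (-0.47) and in non-dividing cells only (-0.41), and KRT20 without the day 15 library of SW620-FLAG (-0.40). The rest were in the comparisons of lines, the interaction and bulk. Late against early, the 9587 called genes became 2 with day 15 against the other days (5356 at an unadjusted p under 0.05) and 6375 in non-dividing cells only. The number of markers called, 4 in that comparison, became 2 with every barcode and 1 to 5 when 1 library was left out. With day 15 against the others it was 1, FABP1, which is not among the 4, in a contrast chosen because of its values. In non-dividing cells only it was 2, VIL1 and KRT20. KRT20 is not among the 4 either, and met the filter there mainly through the early sums, where it is high. Between the lines, the 696 called genes became 1489 with no filter, 46 with no block and 416 to 680 without 1 library, and the markers called became 3 with no filter and 2 in non-dividing cells only. The interaction had 15 calls with no filter. In bulk, location had 24 calls in DESeq2 and 472 with no filter, 2 of them markers. The bulk lines had 704 in DESeq2, 178 with upper-quartile factors, 2239 with no filter, 2 of them markers (VIL1 and MUC13), and 8 with no block. Filtering by the full design, added after seeing the data, changed no call of a marker or named gene tested under both filters, and of the markers left out by the filter used it called KRT20 in the division of cells (7 of 7 markers called, against 6 of 6) and did not call CEACAM6 between the lines, with 9808 called of 16993 genes late against early and 755 of 17478 between the lines. KRT20 met that filter mainly through the non-dividing sums, where it is high, so it is no further support for the markers as a set. The causes of these changes were not tested. Median shares of cells not thinned and thinned to 4000 UMIs were 8.85 and 4.17% for CDX2, 63.8 and 35.2% for VIL1, 6.74 and 3.18% for FABP1, 9.12 and 5.45% for PHGR1, 6.39 and 2.43% for MUC13, and 0.689 and 0.352% for LGALS4, and for KRT20 0.318% not thinned. Leaving out a bulk library left no residual degrees of freedom and gave values with no test. No paired analysis was possible by replicate number because each group holds 1 library, numbered 1. Day, line and library served as blocks instead. The totals limit what can be said of CDX1, CEACAM5, CEACAM6 and, in bulk, of PHGR1 and LGALS4.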
